A study of Mus musculus with 14 samples.

Results

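Foxp1, Etv1, Etv4, Pou3f1, Runx1, Barx2 and Irx6 are transcription factors that divide spinal motoneurons into columns and pools, or are close relatives of such factors. They were taken by name from a table of 23523 gene entries, where each of the 7 had 1 entry, and their 13 transcript entries were taken from a table of 31702. The study sequenced mRNA to find what motoneurons lose without the microRNA miR-218. The labels list 14 samples and the tables hold 13 of them. Floor plate, the remaining sample, was not analysed here. Motoneurons (MN) were sorted as GFP-positive cells from dissociated E12.5 mouse spinal cords carrying Hb9::gfp, a reporter driven by the promoter of Mnx1 (Hb9), a gene of nearly all motoneurons. They gave 6 wild type (WT) libraries and 2 libraries labelled 218DKO (DKO, double knockout of miR-218). Hb9::gfp was shared by all 8, and the labels give no other allele for either group. V1, V2a and V3 interneurons came from wild type E12.5 cords, were labelled through En1:cre, Chx10:cre and Sim1:cre with Rosa26:LSL:tdTomato, and were sorted as tdTomato-positive cells, with 1 library each. Wild type mouse embryonic stem (mES) cells at day 4, given retinoic acid and a hedgehog agonist, gave 1 library of motoneuron progenitors (pMN, tdTomato-positive cells of an Olig2:cre; Rosa26:LSL:tdTomato line) and 1 of neural progenitors (NP, unsorted, no reporter). The labels do not say whether replicates came from separate embryos or pools, so the p-values measure the spread between these libraries, which may be technical.

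Motoneurons that project to the same territory settle in columns along the cord, and within a limb column those that reach the same muscle form a pool. Foxp1, a forkhead repressor, works with Hox proteins to set the limb (lateral) and preganglionic columns. Etv1 (Er81) and Etv4 (Pea3), ETS factors, and Pou3f1 (Oct6, Scip), a POU factor, mark pools and help place their cell bodies and axons. Etv4 is switched on in brachial pools by GDNF from the limb, which signals through the receptor Ret. Runx1, the DNA-binding partner of Cbfb, is known in a cervical motoneuron subset, in pain-sensing neurons and in blood formation. Barx2 and Irx6 are homeobox factors of the Bar and Iroquois families.

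The sequences shown here are the microRNA that the double knockout removes, the only places where its seed found a match in these genes, and the windows upstream of a pair of Foxp1 start sites whose transcripts were given very unequal signal. In the microRNA (RefSeq, GRCm38.p6) capitals mark the seed, bases 2 to 8.
mmu-miR-218-5p: uUGUGCUUgaucuaaccaugu
Its target letters are AAGCACA (7mer-m8), AGCACAA (7mer-A1) or AAGCACAA (8mer). Each transcript ID was matched to a GENCODE M21 (GRCm38) transcript, and all transcript positions, lengths and 3′ ends given here are those of the match. In the 3′ untranslated regions of the 13 matched transcripts, read on the gene's strand, Etv1 and Runx1 had 1 match each, and the other 5 genes had none of these letters. Capitals mark the match. The Etv1 match (chr12:38867566-38867572, plus strand, GRCm38) lies in both Etv1 transcripts. The Runx1 match (chr16:92601706-92601712, minus strand, GRCm38) lies only in the long transcripts NM_001111021 and NM_001111022.
Etv1: agcagttcaccAGCACAAgaaagaacttg
Runx1: ctcaggtcttaAAGCACAtagataagaga
Neither gene had a higher mean in the DKO than in the WT libraries as a whole. The long Runx1 transcripts with the match were listed at 0 in most libraries, at 2.23 in DKO replicate 2 and at up to 1.71 in the WT, too little to compare. A promoter entry was found for 3 of the 7 genes (7 entries in RefSeq, GRCm38.p6). For Foxp1, the 250 bases upstream of the internal start (start site 99028298, chr6:99028299-99028548, minus strand) and of the middle start (start site 99266515, chr6:99266516-99266765, minus strand) are given. Capitals mark TAATTA, the core letters of many homeodomain sites, searched on both strands.
Foxp1, internal start: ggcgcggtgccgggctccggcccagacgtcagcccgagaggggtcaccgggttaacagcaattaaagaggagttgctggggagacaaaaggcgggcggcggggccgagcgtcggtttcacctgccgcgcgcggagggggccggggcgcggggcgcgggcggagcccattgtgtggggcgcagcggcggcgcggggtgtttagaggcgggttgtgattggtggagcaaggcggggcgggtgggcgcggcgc
Foxp1, middle start: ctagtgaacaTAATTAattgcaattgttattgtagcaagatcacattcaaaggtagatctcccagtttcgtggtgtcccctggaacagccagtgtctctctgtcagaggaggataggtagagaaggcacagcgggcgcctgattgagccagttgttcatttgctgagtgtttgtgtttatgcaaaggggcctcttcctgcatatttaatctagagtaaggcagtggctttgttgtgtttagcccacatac
The internal window held 34 CpG and 74% G or C, against medians of 6 CpG and 52.4% over 32851 upstream windows of that length. The middle window held 3 CpG and 45.2% G or C. TAATTA was found once in the middle window and in no other window of Foxp1, Etv1 or Runx1, against 4.84% of all windows. CAGCTG, an E-box, was in none of the 7 windows and in 13% of all windows.

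Values are the authors' deposited signal, a length-scaled abundance that had already been made comparable between libraries, so levels can be set beside each other across genes. Depths worked out from the low values ran from about 7.45 M reads in DKO replicate 1 to 28.6 M in WT replicate 1. At these depths 3 reads in a transcript of 2000 bases equal a signal between 0.988 (WT replicate 1) and 3.94 (DKO replicate 1), a limit that covers counting error only. The labels were checked with Mnx1, which lay at 2194 to 3995 in the WT, 3863 to 4330 in the DKO and 0.775 to 7.46 in the interneuron libraries. Rn45s, the ribosomal RNA precursor, varied widely over the WT libraries. It lay at 10197 to 27943 in replicates 2, 3 and 4 and at 644 to 4275 in replicates 1, 5 and 6. Depth divided the same sets, at 11.9 M to 19.8 M reads against 24.1 M to 28.6 M. So did the total signal, at 7.39e+06 to 7.83e+06 against 6.76e+06 to 7.23e+06, so the division is not one of Rn45s alone. Hoxc12, a gene of the tail end of the cord, was listed at 0 in WT replicates 2 and 4 and at 3.36 in replicate 5. In WT replicates 1, 3 and 6 it was at 222, 234 and 484, and in the DKO libraries at 672 and 382. The labels give no batch, level of the cord or dissection day, and the part of these differences in the values below was not tested.

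Among the 7 genes 6 were higher in WT motoneurons than in the 3 interneuron types taken as 1 class, and Pou3f1 was not. The differences ran from 4.05-fold for Runx1 to 61.5-fold for Etv4 on the log2(signal + 1) scale, and Barx2 was at or under the counting limit in the interneurons. In limma's test over 16486 genes, 32.9% of genes passed in either direction and 17.7% were higher in motoneurons. These were 2921 higher and 2498 lower genes, and 2014 and 3908 with all libraries scaled to the same total, a step that left the calls of the 7 as they were. The same 6 genes did not overlap between the 6 motoneuron and the 3 interneuron libraries, which was true of 33.1% of all genes. The median difference of the 7 was 3.0 on the log2(signal + 1) scale, against -0.04 for all genes tested. All 7 genes passed the filter of a mean signal of at least 1. Each interneuron type had 1 library, so a single type carries no test. In sorted bulk samples, fewer cells of a type and less RNA per cell cannot be told apart.

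Foxp1 (chr6:98925338-99522721, minus strand) had the highest level of the 7. Its signal in WT motoneurons was 788 at lowest, 1218 at the median and 1439 at highest, with a mean of 1176 ± 238 (SD, n = 6). The DKO libraries gave 816 and 723, V1 gave 550, V2a 106 and V3 133, and the stem cell libraries gave 113 (pMN) and 166 (NP). V1 stood well above the other interneurons and within 2.14-fold of the WT mean, whereas the WT mean was 11.1 times V2a and 8.86 times V3. All 3 interneuron values lay below every WT value. The difference of WT motoneurons from interneurons was 2.54 ± 0.42 (SE) on the log2(signal + 1) scale, a 5.81-fold change, with an adjusted p of 0.00153 in limma.

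Most of the Foxp1 signal was assigned to the transcript from the internal start. NM_001197322, of 2468 bases, begins at chr6 position 99028258, near the CpG-dense window printed above, and averaged 992 ± 212 (SD, n = 6) over the WT libraries. It held 80.4% to 88.5% of the Foxp1 signal in the WT, 80.3% to 81.8% in the DKO and 85.1% in the V1 library. Its share was 51.9% in V2a, 65.1% in V3, 67.8% in pMN and 54.0% in NP. Of the 5 libraries other than motoneurons, V1 alone thus had a share within the motoneuron range. NM_053202, which starts upstream at 99435345 and has 7177 bases, was at 183 ± 48.0 in the WT. It was at 45.4 in V2a and 46.3 in V3, where it held 43.0% and 34.9% of the signal. NM_001197321, from the middle start, was listed at 0 in 10 of the 13 libraries. How the authors divided reads between transcripts is not stated, and the match of NM_001197322 also has a nearer 3′ end, so the shares do not separate the use of starts from that of ends.

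**Figure D1:**
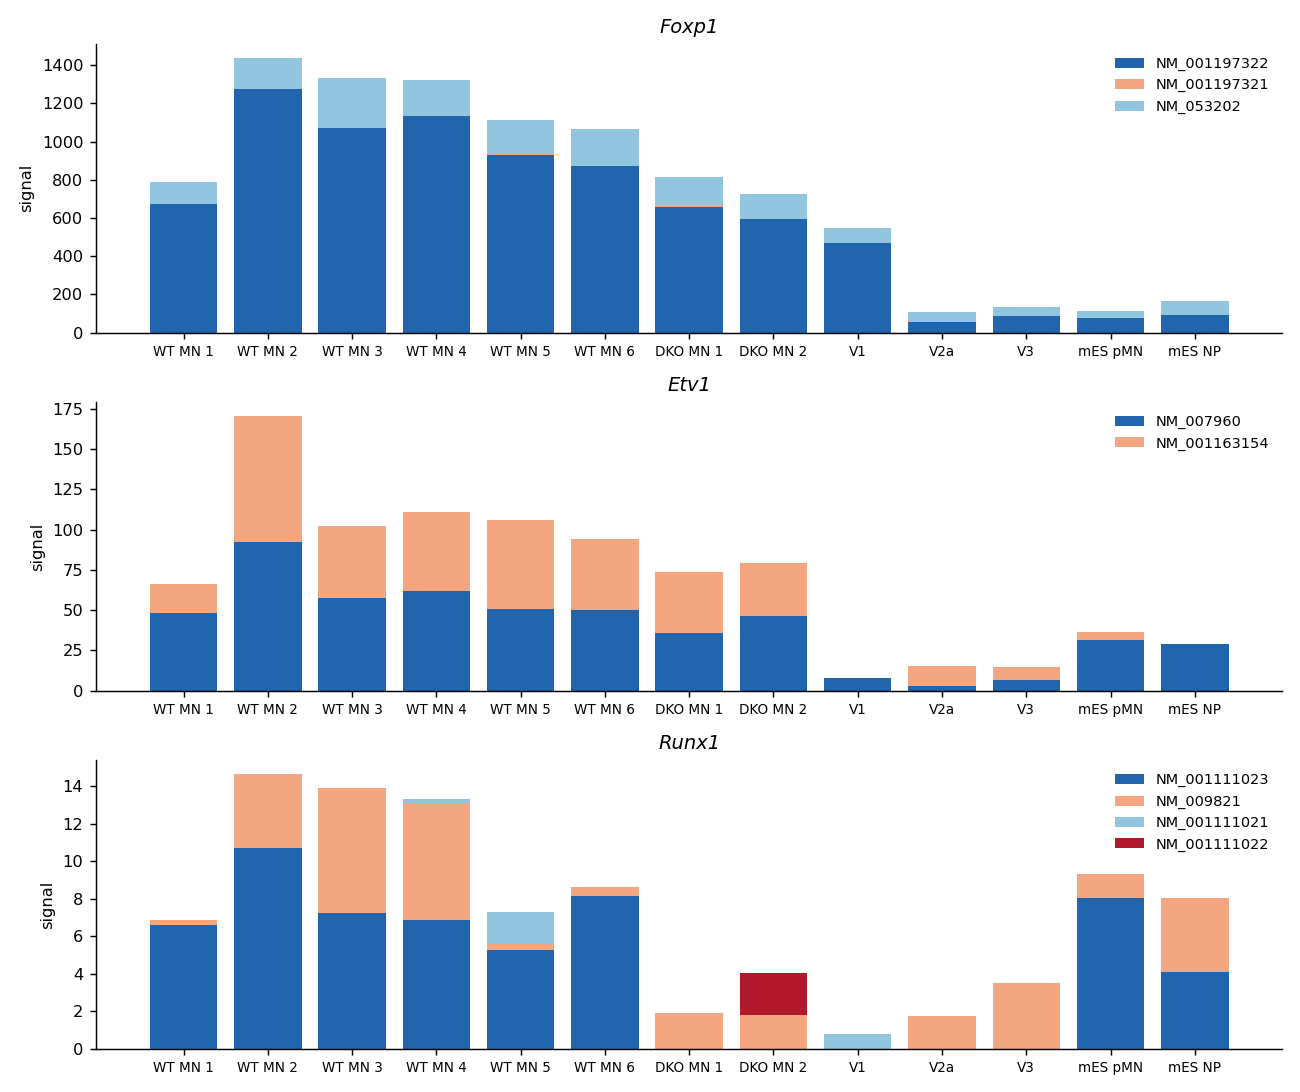
Signal of each transcript entry of Foxp1, Etv1 and Runx1 (vertical axes, deposited signal, stacked) in the 13 libraries (horizontal axes). NM_001197322 makes up most of every Foxp1 bar in motoneurons and V1, and the Runx1 entry NM_001111023 is seen in all 6 WT motoneuron and both stem cell libraries but listed at 0 in the DKO and interneuron libraries.

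The ETS pair was high in motoneurons and low in all 3 interneuron types. Etv4 (chr11:101769742-101785371, minus strand) ranged from 414 through a median of 467 to 771 in the WT, with a mean of 522 ± 137 (SD, n = 6). The DKO libraries gave 364 and 239, V1 5.80, V2a 12.1, V3 5.42, pMN 82.9 and NP 31.3. Every motoneuron library was above every other library. WT motoneurons exceeded the interneurons by 5.94 ± 0.26 on the log2(signal + 1) scale (61.5-fold, adjusted p 2.8e-07, limma). Etv1 (chr12:38779380-38870484, plus strand) was lower than Etv4 in the motoneuron and stem cell libraries and higher in the 3 interneuron libraries. It ranged from 66.4 through 104 to 171 in the WT, with a mean of 108 ± 34.3 (SD, n = 6). In the DKO it was at 73.9 and 79.2, in V1 7.65, V2a 15.5, V3 14.9, pMN 36.4 and NP 29.2. The stem cell libraries stood between the interneurons and the motoneurons for both genes. For Etv1 the motoneuron excess was 3.0 ± 0.30 (8.01-fold, adjusted p 7.5e-05, limma).

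Signal was assigned to both Etv1 transcripts in every motoneuron library, and to 1 of them in V1 and NP. NM_007960 (start 38780082) held 47.9% to 72.5% of the Etv1 signal in the WT libraries, and NM_001163154 (start 38783509) held the rest. The highest NM_007960 share, 72.5%, was in WT replicate 1, and the other 5 WT libraries lay at or below 56.2%. NM_001163154 was listed at 0 in V1 and NP, made up 14.0% in pMN, and held 81.3% of a low signal in V2a. Etv1 signals in the interneurons were 7.65 to 15.5, so their shares rest on few reads.

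Pou3f1 (chr4:124656807-124660655, plus strand) did not follow the other genes. The WT libraries ranged from 328 through a median of 558 to 753, with a mean of 560 ± 151 (SD, n = 6). It was at 362 and 288 in the DKO, and V1 gave 58.1, V2a 1113, V3 913, pMN 51.5 and NP 27.3. V2a and V3 were above every motoneuron library, and V1 was below every one, with a WT mean 9.64 times its value. Taken as 1 class, the interneurons had a mean of 695 ± 560 (SD, n = 3). WT motoneurons differed from them by 0.47 ± 0.75 on the log2 scale (adjusted p 0.651, limma). That value rests on V1: without it the difference was -0.89 with an adjusted p of 0.0283.

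Runx1 (chr16:92601466-92826149, minus strand) had the lowest motoneuron level of the 7. Its WT signal was 6.87 at lowest, 10.98 at the median and 14.6 at highest, with a mean of 10.8 ± 3.55 (SD, n = 6). The DKO libraries gave 1.88 and 4.04, V1 0.780, V2a 1.72, V3 3.49, pMN 9.33 and NP 8.02. The stem cell libraries fell within the WT range, and the DKO and interneuron libraries lay below it. WT motoneurons were higher than interneurons by 2.02 ± 0.39 (4.05-fold, adjusted p 0.00327, limma). Blood and macrophages can carry Runx1, and their markers were present in the sorts. The sum of 9 such markers other than globins was 183 in WT replicate 1, 5.22 to 7.14 in WT replicates 2, 3 and 4, and 24.2 and 30.6 in WT replicates 5 and 6. It was 5.36 and 12.9 in the DKO and 14.9 to 42.9 in the interneurons. The globins were uneven too: Hba-a1 was at 1.46 to 604 in the WT, 4.67 and 226 in the DKO and 105 to 4296 in the interneurons. The part of these cells in the Runx1 values was not tested.

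Barx2, Irx6 and Etv4 had the 3 largest differences between motoneurons and interneurons among the 7. Barx2 (chr9:31846044-31913462, minus strand) ranged from 116 through 134 to 250 in the WT, with a mean of 159 ± 54.4 (SD, n = 6). DKO values were 217 and 215, V1 gave 1.26, pMN 9.01 and NP 10.8, and V2a and V3 were listed at 0. For a transcript of its length, 3 reads give a signal of 1.67 to 1.77 in the 3 interneuron libraries, so Barx2 was not detectable there at this depth. The motoneuron excess was 6.87 ± 0.35 on the log2(signal + 1) scale (adjusted p 7.1e-07, limma), where the added 1 sets the size. Irx6 (chr8:92674288-92680956, plus strand) ranged from 97.7 through 130 to 168 in the WT, with a mean of 134 ± 29.5 (SD, n = 6). The DKO libraries gave 119 and 101, V1 1.90, V2a 1.37, V3 2.42, NP 0.338, and pMN was listed at 0. Irx6 was thus near the counting limit in every library but the motoneurons. Its excess over interneurons was 5.53 ± 0.24 (46.1-fold, adjusted p 2.8e-07, limma).

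**Figure D2:**
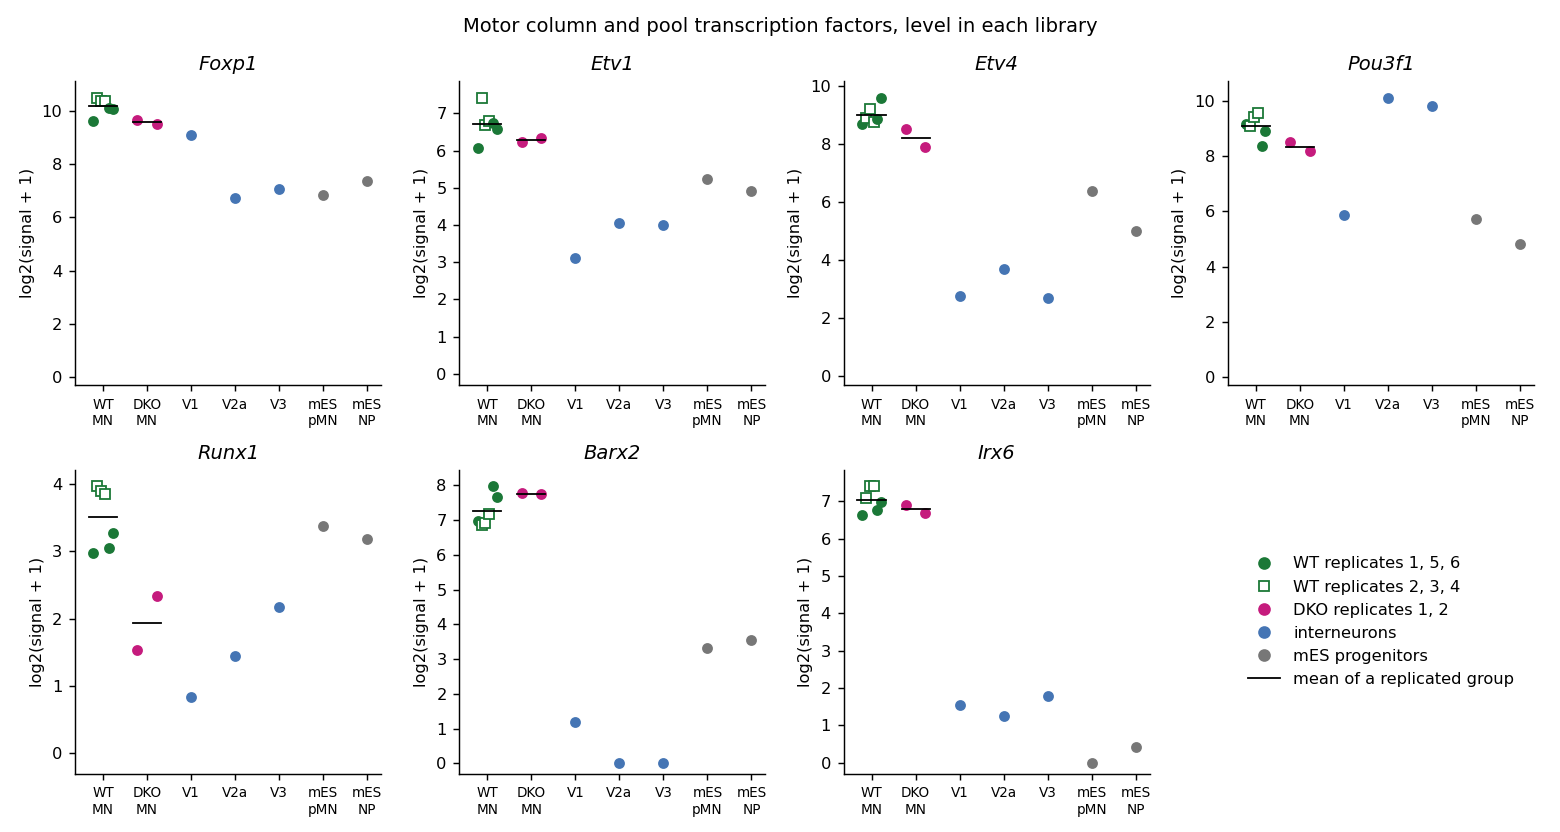
Level of each gene in each library (log2(signal + 1), vertical axes) by cell type (horizontal axes), with a line at the mean of WT and of DKO motoneurons. Open squares are WT replicates 2, 3 and 4. The 8 motoneuron libraries lie above all others for Foxp1, Etv1, Etv4, Barx2 and Irx6, V2a and V3 lie above them for Pou3f1, and Runx1 is low everywhere.

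The stem cell progenitors can be set side by side only as values. Of the 7, Etv4 alone was at least 2-fold apart between pMN (82.9) and NP (31.3) on the log2(signal + 1) scale, a distance reached by 25.0% of the 16792 genes compared, with 1 library each and no test. Pou3f1 came next at 51.5 against 27.3, Etv1 was 36.4 against 29.2 and Runx1 9.33 against 8.02. Foxp1 and Barx2 were slightly lower in pMN, at 113 against 166 and 9.01 against 10.8.

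In the DKO motoneurons 1 of the 7 genes, Runx1, passed the test, and it was lower. Of the other 6 genes, 5 had a lower and 1, Barx2, a higher mean in the DKO, and none passed. In limma's test over 16260 genes, 7.99% of genes passed in either direction and 4.77% were lower in the DKO. The split was 523 higher and 776 lower genes, or 656 and 598 after scaling to the same total, where Runx1 again passed alone of the 7. Unadjusted p-values were under 0.05 for 4 of the 7. The share of all genes under that unadjusted threshold was not counted, so neither this count nor the unadjusted counts below can be judged against it. The DKO and WT libraries did not overlap for 2 genes, Etv4 and Runx1, against 30.7% of all genes. The median difference of the 7 was -0.59 on the log2(signal + 1) scale, against 0.00 for all genes tested.

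Runx1 fell by 1.57 ± 0.40 (SE) on the log2(signal + 1) scale, from 10.8 ± 3.55 (SD, n = 6) to 2.96 ± 1.52 (n = 2), with an adjusted p of 0.0384 in limma. Both DKO values, 1.88 and 4.04, were below the lowest WT value of 6.87. DKO replicate 1 was the shallowest library: for the Runx1 transcript NM_001111023, of 1985 bases, 3 reads correspond to 3.97 there, 1.91 in DKO replicate 2 and 0.996 to 2.71 in the WT. The difference was -1.17 without DKO replicate 1 and -1.97 without DKO replicate 2. A fit with a lone DKO library assumes that it varies like the WT, and it cannot decide the call of a single gene. The call was lost without any 1 of WT replicates 3, 4 or 6 (adjusted p 0.0644, 0.0693 and 0.0559, limma). Between transcripts the loss was uneven. NM_001111023, which begins at chr16 position 92696125, was at 5.27 to 10.7 in the 6 WT libraries and listed at 0 in both DKO and all 3 interneuron libraries. NM_009821, which begins at 92697328, was at 1.88 and 1.80 in the DKO. In the WT it was at 3.96 to 6.66 in replicates 2, 3 and 4 and at 0.286 to 0.472 in replicates 1, 5 and 6. The long transcripts stood for 55.3% of the signal in DKO replicate 2.

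Foxp1 had a mean of 770 ± 66.0 (SD, n = 2) in the DKO against 1176 ± 238 in the WT, a difference of -0.59 ± 0.20 (adjusted p 0.0899, limma). The DKO value of 816 lay above WT replicate 1 (788), and both DKO values were below the other 5 WT libraries. Without WT replicate 1 the difference was -0.70 with an adjusted p of 0.0158. Leaving out the lowest WT library widens the difference by construction, so this is no further evidence of a loss. Without any other 1 WT library Foxp1 did not pass (lowest adjusted p 0.0973, limma). Etv4 had a mean of 302 ± 88.7 against 522 ± 137, with both DKO values below every WT value. Its difference was -0.78 ± 0.23 (adjusted p 0.0635, limma). Etv1 had 76.6 ± 3.75 against 108 ± 34.3, and both DKO values lay between the lowest and the second-lowest WT library (-0.44 ± 0.27, adjusted p 0.325, limma). Etv1, the gene whose transcripts all hold a miR-218 match, was thus not higher in the DKO libraries.

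Pou3f1 had a mean of 325 ± 51.9 (SD, n = 2) in the DKO against 560 ± 151 in the WT, a difference of -0.74 ± 0.26 (adjusted p 0.0982, limma). WT replicate 5, at 328, lay between the DKO values, and without it the difference was -0.89 with an adjusted p of 0.0225. It was the lowest WT library, so here too the wider difference follows from leaving it out. Without any other 1 WT library Pou3f1 did not pass (lowest adjusted p 0.111, limma). Barx2 was at 216 ± 1.71 in the DKO against 159 ± 54.4 in the WT. The DKO values of 217 and 215 lay within the WT range, below only replicate 5, and the difference was 0.50 ± 0.27 (adjusted p 0.269, limma). Irx6 had 110 ± 12.2 against 134 ± 29.5, and its DKO values lay among the lower WT libraries (-0.26 ± 0.22, adjusted p 0.471, limma). For these genes a difference that misses the threshold does not show equal levels.

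**Figure D3:**
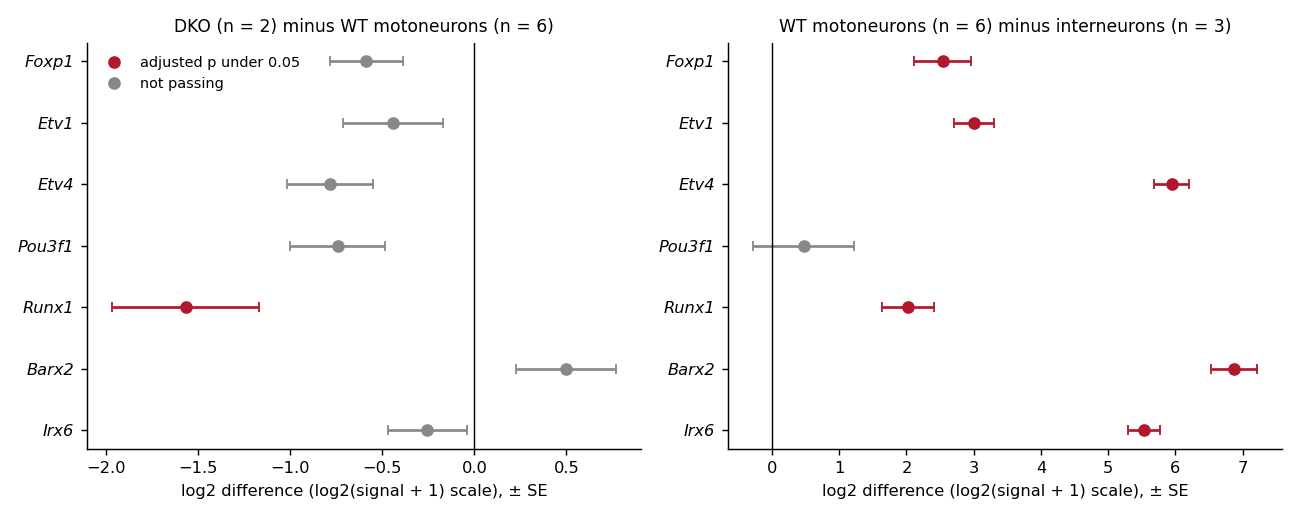
Difference of each gene on the log2(signal + 1) scale (horizontal axes, with its standard error) between DKO and WT motoneurons (left) and between WT motoneurons and interneurons (right). Red points passed an adjusted p of 0.05: Runx1 alone on the left, and every gene but Pou3f1 on the right.

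The set of WT libraries used moved these comparisons. Against WT replicates 2, 3 and 4 alone, 4 of the 7 genes passed: Foxp1 (-0.83, adjusted p 0.00669), Pou3f1 (-1.02, 0.0134) and Runx1 (-1.97, 0.0203) were lower in the DKO, and Barx2 (0.77, 0.019) was higher. Over all 16083 genes that fit called 1282 higher and 1170 lower, more than the 523 and 776 with all WT libraries. Against WT replicates 1, 5 and 6 alone none of the 7 passed in limma, with 2 at an unadjusted p under 0.05. Of 16421 genes in this fit, 985 were higher and 1330 lower. There the differences were -0.35 for Foxp1 (adjusted p 0.164), -0.47 for Pou3f1 (0.197), -1.17 for Runx1 (0.0865) and 0.22 for Barx2 (0.595). Etv4 was nearly the same against either set, at -0.73 (adjusted p 0.0552) and -0.84 (0.0895). Irx6 was at -0.51 (0.0846) against the first set and -0.01 (0.986) against the second. The Rn45s level of the DKO libraries, 1113 and 1647, lay in the range of WT replicates 1, 5 and 6. Their depths, 7.45 M and 15.5 M reads, lay below that set (24.1 M to 28.6 M). Replicates 2, 3 and 4 had 11.9 M to 19.8 M. The DKO sums of 9 blood and macrophage markers other than globins, 5.36 and 12.9, also lay below replicates 1, 5 and 6 (24.2 to 183). In replicates 2, 3 and 4 that sum was 5.22 to 7.14. Which WT set is the closer match to the DKO was not tested.

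Over all 6 WT libraries the genes other than Runx1 were more variable than most genes of like level, for Foxp1 and Etv4 largely through 1 library. The SD of log2(signal + 1) over the 6 libraries was 0.32 for Foxp1 and Irx6, 0.34 for Etv4, 0.42 for Pou3f1, 0.43 for Etv1 and 0.45 for Runx1 and Barx2. Among genes within 0.5 log2 units of the same mean, those SDs stood at the 97.3rd percentile for Pou3f1, 94.8th for Foxp1, 93.9th for Barx2, 93.6th for Etv4, 89.9th for Etv1 and 80.6th for Irx6. Runx1 was at the 41.6th percentile, in a band of low genes whose median SD was 0.50. The bands held 1043 to 2393 genes. For 2 of the genes 1 library carried much of this: the SD fell to 0.19 and the 57.9th percentile for Foxp1 without replicate 1, and to 0.20 and the 54.0th percentile for Etv4 without replicate 6. Pou3f1 without replicate 5 had an SD of 0.26, at the 80.5th percentile, and Etv1 without replicate 2 one of 0.29, at the 74.0th. Percentiles within a band describe these 6 libraries and are no test.

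The genes did not spread along the same order of libraries. WT replicate 1 was the lowest for 5 of the 7: Foxp1, Etv1, Etv4, Runx1 and Irx6. Pou3f1 was lowest in replicate 5 (328) and highest in replicate 4 (753). Barx2 was lowest in replicate 2 (116) and highest in replicate 5 (250), the library with the lowest Pou3f1. Etv4 was highest in replicate 6 (771), whereas Etv1 was highest in replicate 2 (171) and Foxp1 too (1439). The highest value over the lowest was 2.57 for Etv1, 2.29 for Pou3f1, 2.15 for Barx2, 2.13 for Runx1, 1.86 for Etv4, 1.82 for Foxp1 and 1.72 for Irx6.

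**Figure D4:**
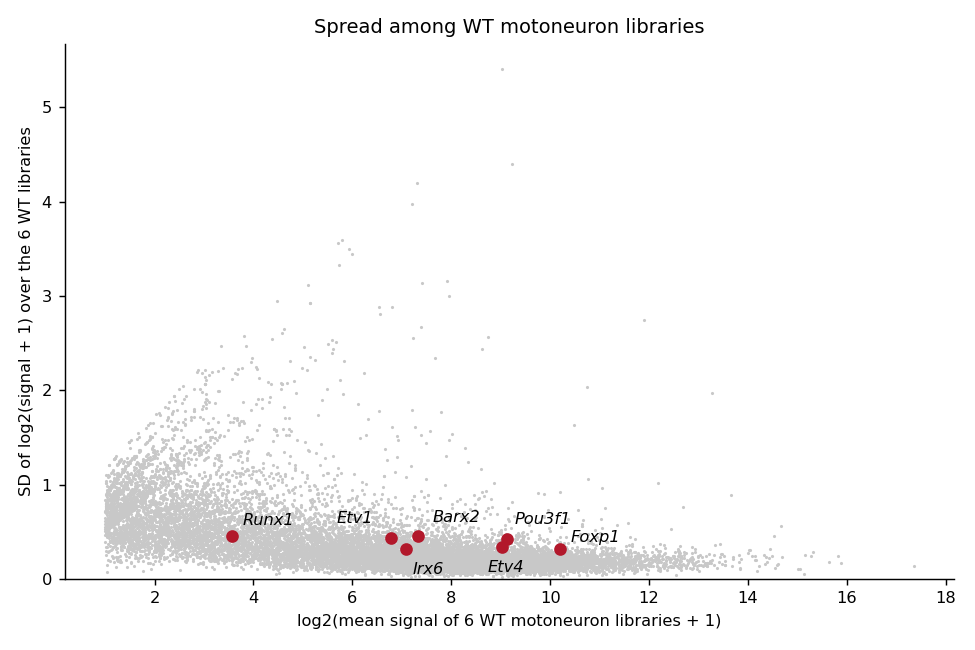
SD of log2(signal + 1) over the 6 WT motoneuron libraries (vertical axis) against log2 of their mean signal + 1 (horizontal axis). Each grey point is a gene with a mean signal of at least 1 and red points are the 7 genes, which lie near the upper edge of the dense cloud, except Runx1 among low genes.

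Replicates 2, 3 and 4, with the high Rn45s, lay wholly above replicates 1, 5 and 6 for Foxp1, Runx1 and Irx6, that is for 3 of the 7 genes, against 29.4% of all genes in which these sets do not overlap. Foxp1 had means of 1365 and 988 in the 2 sets, Irx6 157 and 111, and Runx1 14.0 and 7.60, a ratio of 1.84. Pou3f1 and Etv1 had a ratio of 1.44 but overlapped. Barx2 went the other way, with 127 against 192, and Etv4 had 496 against 549. The summed signal of 16 axial Hox genes was 9757 to 9961 in replicates 2, 3 and 4 and 8179 to 8941 in replicates 1, 5 and 6. Hoxc8 had the highest WT mean of the 16 (2280) and weighs most in this sum. Of the 16, Hoxc5 and Hoxc8 lay wholly above and Hoxa6 wholly below in replicates 2, 3 and 4, and the other 13 overlapped. The sum of the 16 genes thus followed the division, whereas 13 of them taken singly did not. Hoxc8 was at 2239 to 3166 against 1630 to 1932, and Hoxc5 at 242 to 394 against 176 to 231. The part of the Hox and Rn45s levels, and of the depth that follows the same division, in the spread of the 7 genes was not tested.

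The spread between cell types was larger than the spread among WT libraries for every one of the 7. Over the WT mean and the 3 interneuron types, the SD on the log2 scale was 3.51 for Barx2, 3.03 for Etv4, 2.79 for Irx6, 1.95 for Pou3f1, 1.66 for Foxp1, 1.59 for Etv1 and 1.17 for Runx1. Genes of like WT level also had a larger median SD between cell types than among WT libraries, such as 0.65 against 0.50 around Runx1. Among them the cell-type SD stood at the 83.5th percentile for Runx1 and from the 97.3rd (Etv1) to the 99.9th (Barx2) for the other 6. The cell-type SD was 8.85 times the WT SD for Etv4, 8.74 times for Irx6 and 7.79 times for Barx2. For Foxp1 it was 5.23 times, for Pou3f1 4.59, for Etv1 3.66 and for Runx1 2.59. Pou3f1 reached its large spread through V2a and V3 above and V1 below the motoneurons. For the other 6 the WT mean lay above all 3 interneuron types. For Foxp1, V1 (550) also stood apart from V2a (106) and V3 (133). In the order of levels, WT and DKO motoneurons overlapped for 5 genes, V2a and V3 were close for Etv1 (15.5 and 14.9), and single libraries give no spread to separate them.

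Other genes of motor columns and pools were read from lists. Of 16 motor column genes, 6 were higher and 2 lower in WT motoneurons than in interneurons, with a median of 1.99. The largest were the selectors Mnx1 (9.60), Isl2 (7.12) and Isl1 (6.90), and the lower ones were Ebf3 (-2.41) and Smad1 (-0.38). In the DKO 2 of these 16 rose and 2 fell, with a median of 0.13. Aldh1a2, the retinoic acid enzyme of limb motoneurons whose column depends on Foxp1, fell from 3134 ± 934 to 1019 ± 43.5 (SD; adjusted p 0.00686, limma). Aldh1a2 was 1958 in WT replicate 1, the lowest of the WT libraries as for Foxp1, and 4373 and 4067 in replicates 2 and 4. Lhx3, a factor of the medial column, fell by 0.79 (adjusted p 0.035), and Ebf2 and Ebf1 rose by 0.79 and 0.57 (0.0344 and 0.0206, limma).

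Of 16 axial Hox genes none passed in the DKO comparison in limma, with 3 at an unadjusted p under 0.05 and a median of 0.16. The largest differences, Hoxc12 (4.53 ± 2.33, SE) and Hoxc13 (3.88 ± 1.40), had wide standard errors. Hoxd11 (1.72 ± 0.85) and Hoxc11 (1.35 ± 0.90) came next. Hoxc5, Hoxc6, Hoxc8, Hoxc9 and Hoxd9 went the other way, by 0.26 to 0.44. With such spread, missing the threshold does not show equal levels. Hoxa10 had an adjusted p of 0.0575 and a mean of 703 ± 22.5 in the DKO against 414 ± 112 (SD) in the WT. Against interneurons 8 were lower in WT motoneurons and none higher, with a median of -0.98, and Hoxa6 (-1.63), Hoxa10 (-1.43) and Hoxc4 (-1.39) differed most. Of 16 pool genes and upstream signals, 8 were higher in WT motoneurons than in interneurons and none lower, led by Chodl (6.21), a lectin of fast motoneurons, Ret (3.17) and the cadherin Cdh20 (2.32). In the DKO 1 passed: Ret, the GDNF receptor, fell from 1250 ± 154 to 705 ± 0.322 (SD; adjusted p 0.00675, limma). The Ret values were 704 and 705 in the DKO and 980 to 1418 in the WT, with no overlap.

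Among 15 tested paralogs of the 7 genes, 5 were higher and 3 lower in WT motoneurons than in interneurons. The Iroquois genes Irx1 (3.10), Irx5 (2.63) and Irx3 (1.99) were higher, in the same direction as Irx6, and Irx2 (1.40) and Cbfb (1.11), the partner of Runx1, were higher too. Unlike Irx6, Irx3 (255) and Irx5 (164) in V2a lay within their WT ranges of 129 to 284 and 145 to 354. The POU genes Pou3f4 (-2.16), Pou3f2 (-1.88) and Pou3f3 (-1.83) were lower in motoneurons. Pou3f1 did not pass, with V2a (1113) and V3 (913) above and V1 (58.1) below every WT library. In the DKO 1 paralog passed: Foxp2 rose from 262 ± 71.0 to 575 ± 0.335 (SD; 1.18, adjusted p 0.0183, limma). Foxp2 was at 1122 in V1, 19.5 in V2a and 85.3 in V3, and Foxp1 had the same order with V1 highest. Of 9 interneuron markers tested none passed in the DKO comparison in limma, with 1 at an unadjusted p under 0.05. Foxd3, a V1 gene, was at 93.0 to 304 in the WT and at 382 and 384 in the DKO (adjusted p 0.074, limma). The other 9 interneuron markers summed to 37.5 to 218 in the WT, 64.1 and 47.4 in the DKO and 940 to 9372 in the interneurons. In the DKO comparison no blood and macrophage (9 tested), sensory and neural crest (7), mesenchyme and muscle (6) or endothelium (4) marker passed. In that order, 0, 2, 0 and 0 had an unadjusted p under 0.05 (limma). Against interneurons, Col3a1 (-3.80), Col1a2 (-3.39), Pax3 (-2.62) and Prdm12 (-1.82) were lower in WT motoneurons and Pou4f1 (1.98) was higher. No blood or endothelium marker passed there. The mesenchyme and muscle markers summed to at most 38.3 in the WT, 22.5 in V1, 261 in V2a and 1022 in V3. The part of such cells in the interneuron comparison was not tested. Of 8 progenitor and cycling genes, 3 fell in the DKO (Top2a, Vim and Mcm2, by 2.63, 1.11 and 0.99), and the part of these shifts in the differences of the 7 genes was not tested.

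The genes whose log2(signal + 1) ran most like each of the 7 over the 13 libraries were taken from 13719 genes with a mean of at least 10. These values of Pearson's r describe 13 libraries, of which 8 are motoneurons, so any gene high in motoneurons scores well. Irx6 was nearest to Slc5a7 (0.99), the choline transporter, Sgcb (0.99) and A730046J19Rik (0.99). Barx2 was nearest to Mnx1 (0.98), Isl1 (0.97) and Isoc1 (0.96), and Etv4 to Isl1 (0.98), B3galtl (0.97) and Laptm4b (0.97). For Etv1 they were Mecom (0.96), B3galtl (0.96) and Etv4 (0.96), and for Foxp1 Glrx (0.98), Ube2e2 (0.98) and A830018L16Rik (0.97). Pou3f1 had Chst8 (0.95), Meis2 (0.95) and Adcyap1 (0.94), and Runx1 had Cap1 (0.96), Lipa (0.95) and Rhou (0.95). Between the 7 themselves r was highest for Etv4 with Barx2 and with Etv1 (0.96 each), and Pou3f1 reached only 0.11 to 0.57 with any of the others.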

How the data were processed

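The authors deposited a signal per RefSeq gene and per transcript for each library, as the columns of the file headers show. The submitters' processing notes name DESeq, bedtools, mm9 and mm10 without roles. Which aligner and counter were used is not given in the sources used here, nor how reads were divided between transcripts. The values were no read counts: their total differed between libraries (6.24e+06 to 9.88e+06) while the 75th percentile was 228 to 234. Multiplied by transcript length, 78.4% to 79.8% of low values fell within 0.1 of a whole number of reads, which gave the approximate depths. No column of values was left unused.

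Differences were tested in R 4.3.3 with limma 3.58.1 (trended prior, two-sided, Benjamini-Hochberg over all genes tested, threshold 0.05) on log2(signal + 1), for genes with a mean of at least 1 over the libraries compared. A fold on this scale understates the change of low genes. The fit was tested on simulated data. Alternatives were other pseudocounts and filters, equal totals, no trend, the transcript table, subsets of WT libraries and each library left out. Positions and lengths came from GENCODE M21 (GRCm38) through its RefSeq match. The 7 genes, the lists and the Rn45s division were chosen with earlier results of these data known. Named genes were the 7, up to 3 passing genes per list, comparison and direction by size of change, and the 3 nearest genes of each. Hoxc5, Hoxc6, Hoxc8, Hoxc9, Hoxc11, Hoxc12, Hoxc13, Hoxd9, Hoxd11, Foxd3, Hba-a1, Irx2 and Cbfb were named after their values were seen.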

Additional observations from a re-analysis of the deposited data

How the results depend on the processing

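The count of these genes that passed between DKO and WT was 1. It became 0 with a pseudocount of 10 (Runx1 adjusted p 0.0507), with no filter on low values (0.0524), with a mean of at least 10, where Runx1 was not tested, and against WT replicates 1, 5 and 6 alone, with 4, 4, 3 and 2 of the genes at an unadjusted p under 0.05. It became 4 against WT replicates 2, 3 and 4, where more genes passed over the whole table too (1282 higher and 1170 lower). With 1 WT library left out it lay between 0 and 2. Replicate numbers 1 and 2 occur in both groups, but the labels do not say that they pair samples, and the deviations of same-numbered libraries correlated at -0.06 and -0.01; with a replicate block 0 of the 7 passed (4 at an unadjusted p under 0.05, Runx1 adjusted p 0.187), and 120 genes were higher and 94 lower. Etv4 passed in no alternative (lowest adjusted p 0.0525). Against interneurons the 6 calls held under every alternative in which the gene was tested. The Pou3f1 difference was 1.22 without V2a and turned to -0.89 without V1. Scaling all libraries to the same total moved the median of all genes from 0.00 to 0.09 (DKO minus WT) and from -0.04 to -0.22 (WT minus interneurons). It changed the split of genes from 523 higher and 776 lower to 656 and 598 in the DKO, and from 2921 and 2498 to 2014 and 3908 in WT motoneurons, with the same member calls. The SD among WT libraries moved to 0.25 for Runx1 with a pseudocount of 10, to 0.19 for Foxp1 without WT replicate 1, to 0.26 for Pou3f1 without replicate 5 and to 0.20 for Etv4 without replicate 6. Depth limits Runx1 in DKO replicate 1, Barx2 in the interneurons and Irx6 outside motoneurons. The causes were not tested.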
